A study of Mus musculus with 5 samples.

Results

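Altered use of splice junctions is described for 7 broadly expressed RNA-binding protein genes: Hnrnpa2b1, Hnrnph3, Ewsr1, Tial1, Fxr1, Rbm4 and Cirbp. They were chosen by name from the authors' deposited table of splicing events, and they are 7 of its 457 named genes. Each event there has at least 1 junction with an authors' p under 0.05 for PQBP1 knockdown against mock knockdown. The events thus appear to have been selected on this p-value, though no source used here states the rule. They hold 9 of its 585 events and 20 of its 1402 splice junctions. Cortical neurons of C57BL/6 mouse embryos (E16.5) were infected with lentivirus and collected after 5 days in vitro. The 2 knockdown samples carried a PQBP1-targeting shRNA and the 3 mock knockdown samples a non-targeting control shRNA, so all 5 had been infected. PolyA RNA was sequenced. The number of hairpins and of separate cultures is not in the labels, so the p-values may measure technical spread.

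HnRNP and related proteins coat nascent transcripts and influence which splice sites the spliceosome uses. In neurons several also carry messenger RNA along neurites or hold it in stress granules. PQBP1 is a nuclear protein that binds spliceosome components, and mutations in its human gene cause X-linked intellectual disability. Genes of RNA-binding proteins are themselves often spliced into alternative forms, some with an early stop codon that sends the transcript to nonsense-mediated decay (NMD).

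For each junction, the authors' deposited table lists a p-value and the log2 of knockdown over control, called its log2 fold below. It holds no value for any sample and no read count, so the depth is unknown and no fold below carries an SD or an n. The junctions of an event share a donor or an acceptor site, and a fold is read here as the change in a junction's share of its event. This reading was inferred from the values, since the fold is not defined in the sources used here. "Rose" and "fell" mean that the authors' p was under 0.05. For events of 2 junctions, the share of each junction in both groups was inferred from the folds by taking the shares to add up to 100%. These shares are a reconstruction with unknown error. Pqbp1 itself has no event and the table gives no gene levels, so the knockdown and the neuronal identity of the cells could not be checked. In bulk RNA, a change of splicing within cells and a change in the mix of cells cannot be told apart. The gene list was drawn from this contrast, so the values describe the 7 genes and are not tested anew. Coordinates are mm10, 1-based, and exons are those of GENCODE M21.

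Of the 20 junctions, 9 rose, 9 fell and 2 had a p above 0.05. An Ewsr1 junction that fell is listed in 2 events and counted in both, so 19 of the 20 are distinct. Over the whole table, 76.2% of the 1389 junctions with a p were under 0.05, with 37.8% higher and 38.4% lower. Every event was listed with at least 1 junction under that value, so these counts follow from how the table was made. By its smallest p the Tial1 event ranked 21 of 585 and the second Ewsr1 event 498. After Benjamini-Hochberg adjustment of the authors' p over all listed junctions, 7 junctions in 4 events stayed under 0.05, in Tial1, Ewsr1, Hnrnpa2b1 and Fxr1. Every listed event already holds a p under 0.05, so this adjustment does not cover junctions that were tested and not listed. Both junctions of an event with 2 junctions also enter it with the same p. The adjusted values here and below order the listed junctions and do not tell supported events from others. The sources used here do not say whether the deposited p-values were already adjusted, and if they were, this adjustment was applied on top of another.

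**Figure D1:**
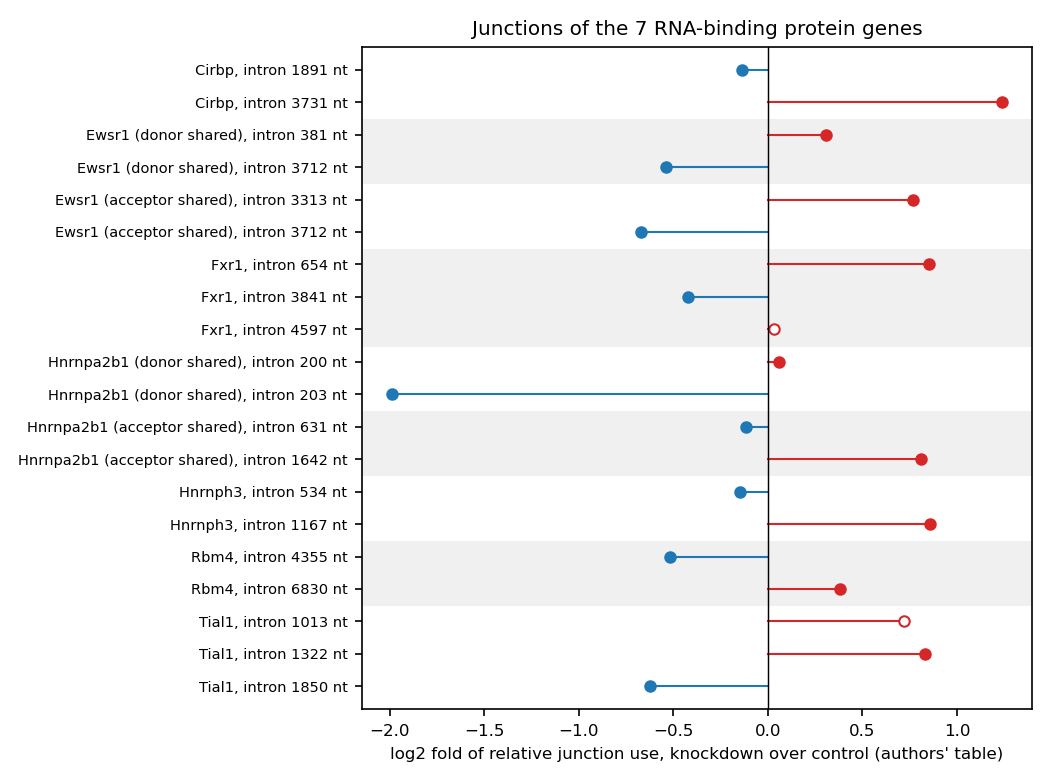
Log2 fold of relative use (x axis, knockdown over control, authors' table) for each of the 20 junctions (y axis, by gene and intron length in nt), with neighbouring events on alternating backgrounds. Red is higher and blue lower, and open circles have p above 0.05; the Hnrnpa2b1 junction with the 203 nt intron lies farthest from 0, at -1.98, and the Cirbp junction with the 3731 nt intron is the highest, at 1.24.

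Hnrnpa2b1 encodes hnRNP A2 and its splice form B1, abundant nuclear proteins that regulate splicing and bind messenger RNA for transport in neurites. It had 2 events, and each paired a junction of the coding transcripts with one that is not annotated. The first choice concerned which donor was joined to a coding exon of 120 nt at chr6:51464428-51464547 on the minus strand. The annotated junction from the preceding exon of 63 nt (chr6:51465179-51465241) fell slightly, with a log2 fold of -0.11 in the authors' deposited table. The other junction rose, with a log2 fold of 0.81 (p = 0.00552 for both) in the authors' deposited table. The adjusted p over all listed junctions (Benjamini-Hochberg on the authors' deposited table) was 0.0421. Its inferred share went from 9.13% in the mock knockdown to 16.0% in the knockdown.

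The rising junction leaves from a site inside the annotated coding exon of 81 nt at chr6:51466142-51466222. It keeps 33 bases of that exon, drops the other 48 and passes over the 63 nt exon. That removes 111 bases or 37 codons, so the reading frame is kept. The bases that follow this site are GT, as at the annotated donor, whose intron bases were read from a retained-intron transcript. The unbroken run of matching bases at the 2 sites is the last exon base and this GT. The sequences show both donors, with GT in capitals.
internal donor in the 81 nt exon: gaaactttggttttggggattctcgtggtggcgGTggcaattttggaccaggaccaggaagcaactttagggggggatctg
annotated donor of the 63 nt exon: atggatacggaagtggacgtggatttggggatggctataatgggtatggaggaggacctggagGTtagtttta

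The second Hnrnpa2b1 event was a choice between acceptors 3 bases apart at the start of a coding exon of 211 nt (chr6:51466495-51466705). The junction to the annotated acceptor had a log2 fold of 0.06 in the authors' deposited table, and the junction to the inner one fell, with a log2 fold of -1.98 (p = 0.0352 for both). This is the largest fold of the 20 junctions but among the smallest shifts in share, since the inner acceptor was inferred at 5.03% in the mock knockdown and 1.27% in the knockdown. By shift in inferred share the event ranked 403 of 408, and by log2 change of the ratio 49. The inner acceptor drops 3 bases of the exon, shown in capitals after the last 12 bases of the exon before.
Hnrnpa2b1 acceptors: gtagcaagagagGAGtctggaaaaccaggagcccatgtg
These bases, GAG, have the form NAG, with which 5.45% of the 201468 distinct acceptors of protein-coding transcripts begin their exon in GENCODE M21 (searched on the transcript strand only). Sites 3 bases apart made up 12 of the 408 events with 2 junctions (2.94%).

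Hnrnph3 encodes a member of the hnRNP H family, which binds G-rich RNA. Its event was skipping of a coding exon of 139 nt at chr10:63018760-63018898 on the minus strand. In the authors' deposited table the skipping junction rose, with a log2 fold of 0.86, and the inclusion junction fell, with a log2 fold of -0.15 (p = 0.0283 for both). The inferred share of skipping went from 10.6% to 19.2%. The exon length is not a multiple of 3. After skipping, the annotated reading frame runs for 101 bases into the next exon, of 185 nt, and meets a stop codon. The skipping junction is annotated in Hnrnph3-204, an NMD transcript, and in Hnrnph3-203, a short protein-coding one that ends in an extension of that next exon. The first sequence gives the exon in capitals between 12 bases of each neighbour, and the second the skipped form from the last 12 bases of the exon before, with the stop codon in capitals.
Hnrnph3 exon included: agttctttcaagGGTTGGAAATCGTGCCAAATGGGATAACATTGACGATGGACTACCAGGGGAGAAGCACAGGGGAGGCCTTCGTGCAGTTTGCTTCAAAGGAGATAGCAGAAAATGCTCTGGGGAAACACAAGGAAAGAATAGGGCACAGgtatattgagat
Hnrnph3 exon skipped: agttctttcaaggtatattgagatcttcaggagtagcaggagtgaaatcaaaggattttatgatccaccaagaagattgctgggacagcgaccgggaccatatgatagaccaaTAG

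Ewsr1 encodes EWS, a member of the FET family of proteins that bind RNA and link transcription to splicing. A coding exon of 18 nt, at chr11:5091460-5091477 on the minus strand, was included more after knockdown, and this was listed from both of its sides. From the acceptor of the next exon (187 nt), the inclusion junction rose, with a log2 fold of 0.77 in the authors' deposited table. The skipping junction fell, with a log2 fold of -0.67 in the authors' deposited table (p = 0.00265 for both, and 0.0325 adjusted in the same way). The ratio of inclusion to skipping was 2.71 times that of the mock knockdown, and the inferred share of inclusion went from 34.7% to 59.0%. From the donor of the exon before (124 nt), the log2 folds in the authors' deposited table were 0.31 for inclusion and -0.54 for the same skipping junction (p = 0.0435 for both). The inferred share from that side went from 56.8% to 70.2%.

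Both readings moved in the same direction, but they share the skipping junction and are 1 observation, not 2. The inferred shares were higher from the donor side. The inclusion junction there is not particular to the 18 nt exon, whose acceptor also begins an annotated last exon of 1019 nt (Ewsr1-201). How much of that junction belongs to the last exon, and whether this accounts for the higher shares, was not tested. The exon adds 6 codons and keeps the frame. It stands in capitals between 12 bases of each neighbour, as in Ewsr1-205, the transcript that holds both inclusion junctions.
Ewsr1 exon: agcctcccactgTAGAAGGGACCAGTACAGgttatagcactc
By shift in inferred share, the reading from the acceptor ranked 48 of 408 events, the highest of the 7 events with 2 junctions in these genes.

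Tial1 encodes TIAR, which binds U-rich RNA near donor sites, where it aids recognition by the U1 particle, and which gathers in stress granules. From the donor of an exon of 88 nt (chr7:128448121-128448208, minus strand), 3 acceptors were used. The junction to the coding exon of 76 nt (chr7:128446195-128446270), found in all annotated coding forms that use this donor, fell with a log2 fold of -0.62 in the authors' deposited table (p = 0.000397, and 0.0143 adjusted). The junction to an exon of 68 nt (chr7:128446731-128446798) rose, with a log2 fold of 0.83 in the authors' deposited table (p = 0.00474, and 0.0416 adjusted). The junction to the third acceptor, of an exon annotated with 69 nt (chr7:128447039-128447107) or 377 nt, had a log2 fold of 0.72 in the authors' deposited table and p = 0.186. Both of these last junctions are annotated in NMD transcripts alone.

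With 3 junctions the shares cannot be inferred exactly, but the folds, taken as exact, bound them. Together, the junctions of NMD transcripts were inferred at 31.0% to 35.1% in the mock knockdown and 55.2% to 57.9% in the knockdown. The error of these bounds is unknown, and they include the junction whose authors' p was 0.186. In the annotation, the frame meets a stop codon after 31 bases in the 68 nt exon and after 34 bases in the 69 nt exon. Each sequence below opens with the last 12 bases of the 88 nt exon. Capitals mark the stop codon in the NMD forms and the whole exon in the coding form.
Tial1 68 nt exon to its stop codon: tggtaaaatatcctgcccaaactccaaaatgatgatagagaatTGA
Tial1 69 nt exon to its stop codon: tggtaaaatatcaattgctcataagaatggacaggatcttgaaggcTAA
Tial1 76 nt coding exon: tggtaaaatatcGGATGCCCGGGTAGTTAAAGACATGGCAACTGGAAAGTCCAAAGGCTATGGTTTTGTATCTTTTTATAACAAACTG

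Fxr1 encodes a paralog of FMRP, the fragile X protein, and binds messenger RNA to regulate its translation. From the donor of a coding exon of 201 nt (chr3:34064119-34064319, plus strand), 3 acceptors were used. The junction to a coding exon of 81 nt (chr3:34064974-34065054) rose, with a log2 fold of 0.85 in the authors' deposited table (p = 0.00723, and 0.0450 adjusted). The junction that skips it to a coding exon of 92 nt (chr3:34068161-34068252) fell, with a log2 fold of -0.43 in the authors' deposited table (p = 0.0139, and 0.0547 adjusted). The junction that skips both, to the last exon, had a log2 fold of 0.03 in the authors' deposited table (p = 0.963).

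All 3 Fxr1 junctions are annotated in transcripts of the consensus coding set (CCDS). The falling junction is also annotated in a transcript marked for nonsense-mediated decay. The 81 nt exon adds 27 codons in frame and is followed by the 92 nt exon in Fxr1-201. The 92 nt exon is not a multiple of 3 and changes the frame of the last exon, which codes for 168 bases with it and for 14 without it. Taken as exact, the folds bound the share of the 81 nt exon only from above, at 24.1% in the mock knockdown and 43.4% in the knockdown. The error of these bounds is unknown. The exons stand in capitals between 12 bases of each neighbour.
Fxr1 81 nt exon: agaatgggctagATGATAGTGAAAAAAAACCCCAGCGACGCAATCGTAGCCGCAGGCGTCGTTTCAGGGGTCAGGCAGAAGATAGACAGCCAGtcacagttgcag
Fxr1 92 nt exon: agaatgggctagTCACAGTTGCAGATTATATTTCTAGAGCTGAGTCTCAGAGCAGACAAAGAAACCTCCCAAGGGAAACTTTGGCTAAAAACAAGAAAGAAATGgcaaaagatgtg

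**Figure D2:**
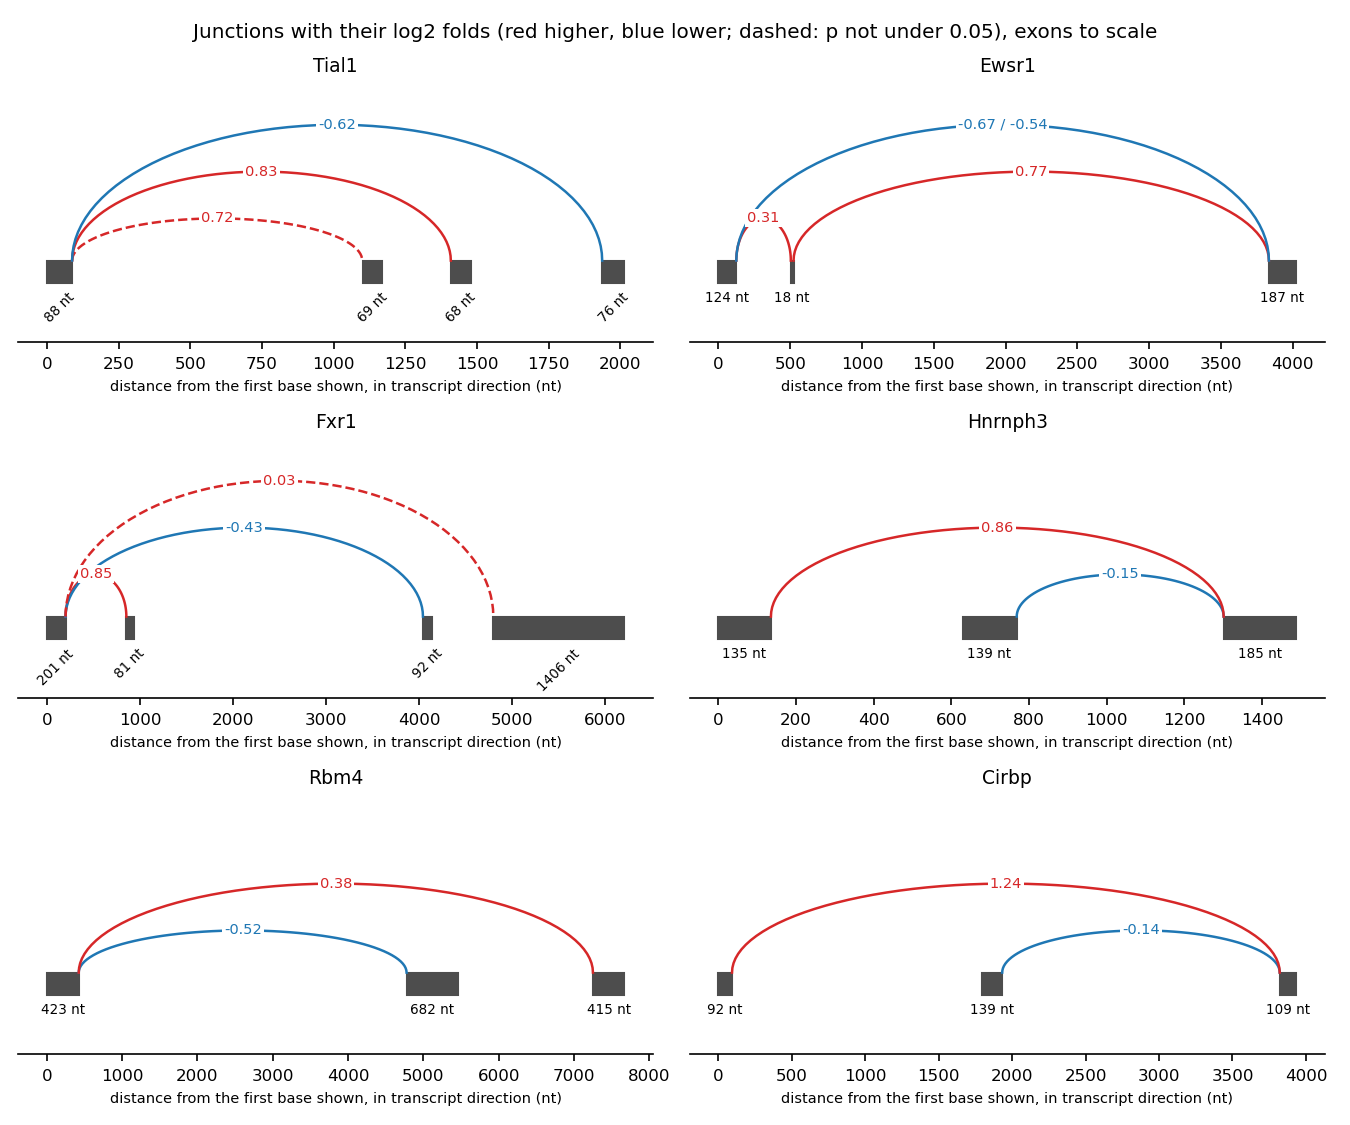
Exons (boxes) and junctions (arcs) of 6 of the 7 genes, drawn to scale along each transcript (x axis, distance in nt from the first base shown), with the authors' log2 fold on each arc. Red arcs were higher and blue arcs lower after knockdown, and dashed arcs have p above 0.05; in Tial1 the arc to the 76 nt coding exon is the only blue one (-0.62), and the Ewsr1 skipping arc carries the folds of both events (-0.67 and -0.54).

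Rbm4 encodes a protein with RNA recognition motifs that acts in alternative splicing and in translation. From the donor of the exon with its start codon (423 nt, chr19:4792398-4792820, minus strand), the junction to the exon of 682 nt (chr19:4787361-4788042) fell, with a log2 fold of -0.52 in the authors' deposited table. The junction that skips this exon rose, with a log2 fold of 0.38 in the authors' deposited table (p = 0.0130 for both, and 0.0534 adjusted). The inferred share of skipping went from 49.8% to 64.9%. The 682 nt exon holds 671 coding bases, the most of any alternative exon described here. In Rbm4-203, which skips it, 17 coding bases follow before a stop codon, and GENCODE M21 lists this short form as protein-coding and in the CCDS. Each sequence opens with the last 12 bases of the 423 nt exon. Capitals mark the first 30 bases of the 682 nt exon or the stop codon.
Rbm4 682 nt exon included: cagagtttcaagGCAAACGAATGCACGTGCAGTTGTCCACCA
Rbm4 682 nt exon skipped: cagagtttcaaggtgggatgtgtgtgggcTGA
The inclusion junction is not unique to Rbm4. It is also an intron of 1 of 6 transcripts of Gm21992, an overlapping protein-coding gene, and 53 of the 60 bases around it are identical in the neighbouring paralog Rbm4b.

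Cirbp encodes the cold-inducible RNA-binding protein, which is induced by mild cold and stress. Its event was a choice of first exon, and where transcription started was not tested. The junction from the nearer first exon (139 nt, chr10:80167778-80167916, plus strand) fell slightly, with a log2 fold of -0.14 in the authors' deposited table. The junction from a first exon of 92 nt farther upstream (chr10:80165985-80166076) rose, with a log2 fold of 1.24 in the authors' deposited table (p = 0.0242 for both, and 0.0615 adjusted). Its inferred share went from 6.37% to 15.0%. Neither first exon codes for protein, and both join the same exon of 109 nt, whose start codon lies at chr10:80169814-80169816. The last 21 bases of each first exon are shown up to the start codon, in capitals, to mark that the annotated protein start is the same.
Cirbp nearer first exon: agggacctgcccgactcagcggctgccATG
Cirbp upstream first exon: ctcgaccaacttcatctgaaggctgccATG
The upstream form is annotated in 1 transcript, Cirbp-207, whose 3' end is incomplete, so which full transcript it belongs to cannot be read from these gene models.

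**Figure D3:**
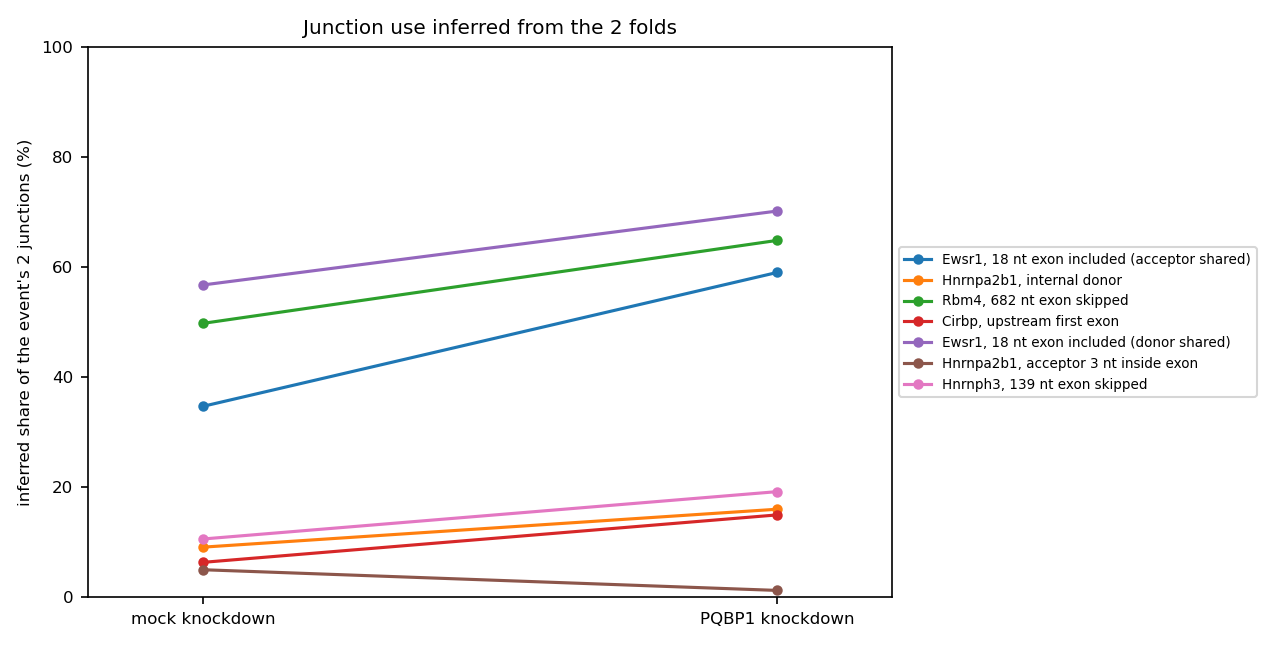
Share of 1 of the 2 junctions of each event (y axis, percent, inferred from the authors' folds) in mock and PQBP1 knockdown (x axis), without error bars because no sample values exist. The Ewsr1 exon, read from the shared acceptor, goes from 34.7% to 59.0%, while the Cirbp, Hnrnph3 and Hnrnpa2b1 forms stay below 20% in both groups.

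Junctions of 3 other genes matched pseudogenes. Of the 60 spliced bases around it, the Ewsr1 skipping junction shares 56 with each of the processed pseudogenes Gm6627 and Gm7517. The annotated junctions of both Hnrnpa2b1 events share 58 with Gm5778, and the Fxr1 junction to the last exon shares 55 with Gm17795. No match of at least 54 aligned bases and 90% identity to another gene was found for the other junctions, the unannotated Hnrnpa2b1 ones included. The search allowed no gaps, so a pseudogene that holds the bases dropped at the inner Hnrnpa2b1 acceptor could not match there. Without gaps, that junction shares 41 of 60 bases with Gm5778, so the search does not tell whether it is unique. Whether reads of these genes entered the authors' counts was not tested.

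The rising and falling junctions differed in how they are annotated. Of the 9 that fell, 8 belong to a CCDS transcript and the other is the unannotated inner acceptor of Hnrnpa2b1. The Ewsr1 skipping junction counts here once per event. Of the 9 that rose, 3 belong to a CCDS transcript (in Fxr1, Rbm4 and Hnrnpa2b1), 1 to NMD transcripts alone (Tial1), 4 to other transcripts without a CCDS (Ewsr1, Cirbp, Hnrnph3) and 1 is not annotated (Hnrnpa2b1). Over the whole table the CCDS share was 72.3% of the 534 falling and 52.4% of the 525 rising junctions, so the difference is not particular to these genes. Of all falling junctions 10.5% were not annotated. Of all rising ones 4.76% were in NMD transcripts alone, 28.6% in other transcripts without a CCDS and 14.3% not annotated. Of the 41 junctions in the table that are annotated in NMD transcripts alone, 61% rose and 17.1% fell. The CCDS was chosen for this count after the values had been seen.

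In size, the median event of these genes lay below that of the table. The 7 events with 2 junctions had a median absolute log2 change of the junction ratio of 1.0 (range 0.84 to 2.04), beside 1.36 (interquartile range 1.01 to 1.74) over all 408. Their median shift in inferred share was 8.62 percentage points, beside 12.9 (interquartile range 9.07 to 18.8). Of the 7 events, 3 moved towards the junction with the shorter intron, beside 42.9% of the 408. Those were both Ewsr1 events and the Hnrnpa2b1 choice of acceptors, whereas Rbm4, Hnrnph3, Cirbp and the other Hnrnpa2b1 event moved towards the longer intron.

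**Figure D4:**
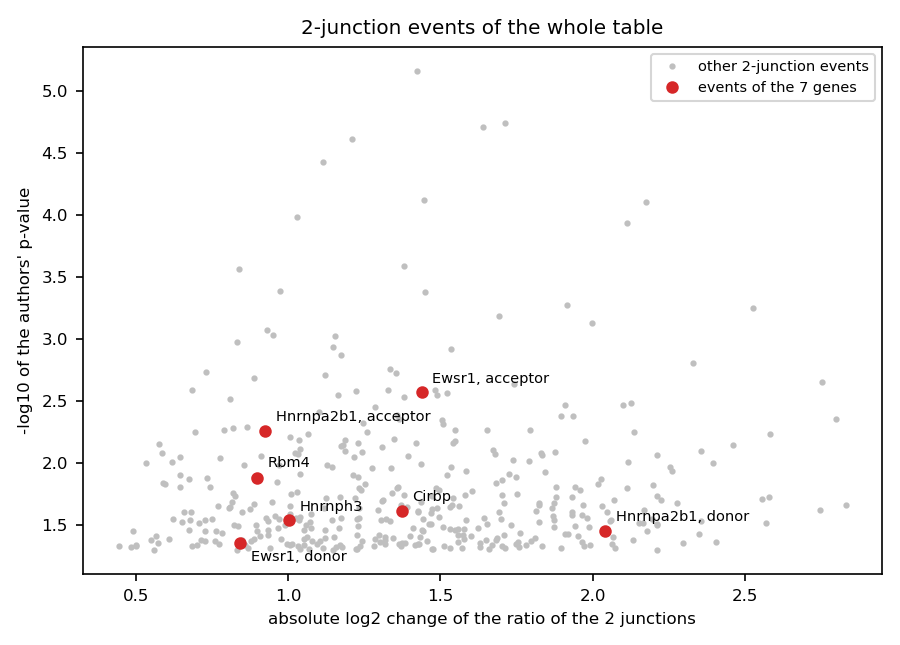
Each point is 1 of the 408 events with 2 junctions, placed by the absolute log2 change of its junction ratio (x axis) and by -log10 of the authors' p-value (y axis). The 7 events of these genes (red) range from 0.84 to 2.04 in change and lie within the cloud of the others.

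Of 57 further symbols of hnRNP, FET, FXR and related RNA-binding proteins, 5 had an event: Ybx1, Raly, Pcbp2, Hnrnpul1 and G3bp2. Their 6 events held 19 junctions, of which 2 rose and 5 fell, beside the 37.8% and 38.4% over the whole table. A G3bp2 junction among them has no p. The whole-table shares are not a like baseline. Both junctions of every event with 2 junctions have p under 0.05, and most of these 6 events are larger. Ybx1, a cold-shock domain protein that packages messenger RNA, had the only event with 2 junctions. Its coding junction fell, with a log2 fold of -0.35, and a junction annotated in a non-coding transcript rose, with a log2 fold of 0.83 (p = 0.00714 for both) in the authors' deposited table. The inferred share of the latter went from 21.8% to 38.8%.

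The remaining listed genes had larger events in which 1 junction passed. In Pcbp2, a poly(C)-binding protein, the same junction fell in 2 events, with log2 folds of -1.49 (p = 0.0455) and -1.62 (p = 0.0299) in the authors' deposited table. An unannotated junction of the stress granule gene G3bp2 fell with a log2 fold of -0.65 (p = 0.0164) in the authors' deposited table. An unannotated junction of Hnrnpul1 fell with a log2 fold of -1.01 (p = 0.0433), and a junction of Raly rose with 0.23 (p = 0.0438), again in the authors' deposited table. The other 52 symbols have no event in the table, which does not show that their splicing was the same in both groups.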

How the data were processed

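The 5 libraries were sequenced and processed by the authors, who aligned reads with TopHat2 2.0.4 on the mm10 assembly (per the submitters' processing notes). No source used here tells how junctions were counted, tested and filtered. Per the file headers, each junction has a deposited log2 fold (knockdown/control) and p-value; 13 of 1402 p-values are empty. In all 408 events with 2 junctions both p-values are equal (relative tolerance 1e-06) and the folds have opposite signs, so the log2 fold is read as relative use within the event.

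Genes were matched by the table's gene name, filled down from each row with an event identifier. Adding 1 to start and end made 1179 junctions (84.1%) equal introns of GENCODE M21, which is on the same assembly. Exon bases were read from GENCODE M21 transcripts. Several of these models have transcript support level 5, the weakest on a scale that starts at 1. Among them are Ewsr1-205, Fxr1-201, Hnrnph3-201, Hnrnpa2b1-202 and the Tial1 models Tial1-204, Tial1-205 and Tial1-212. For an event with 2 junctions the change is the difference in log2 fold, shorter intron minus longer. Shares were solved from the folds, and for 3 junctions bounded by linear programming (scipy 1.17.1). The solution for 2 junctions was tested on simulated shares without measurement error. The bounds were not tested on simulated data. The 60 spliced bases around each junction were compared with all GENCODE transcripts by ungapped BLAST 2.17.0. No test of the samples could be made. The genes and lists were chosen with earlier results of these data known. All events of the 7 genes and the listed genes with an event are named, except for items of the list that are not reported here.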

Additional observations from a re-analysis of the deposited data

How the results depend on the processing

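Without values per sample, no replicate could be left out, and the depth that limits each value is unknown. No paired analysis was possible because the table holds no values of single samples. Of 20 junctions, 18 had p under 0.05 in the authors' table and 7 had p under 0.01. After Benjamini-Hochberg adjustment over the listed junctions alone, 7 were under 0.05. With annotated introns alone, 16 had an authors' p under 0.05. Of the 7 events with 2 junctions 3 moved towards the shorter intron; it was 1 of 2 with p under 0.01, 2 of 5 with annotated introns alone and 2 of 6 with the Ewsr1 exon counted once. Taking the junction with the larger fold alone could not reverse any of the 7 changes, since the folds of each event have opposite signs. For shared acceptors the log2 change of the ratio then went from 1.44 to 0.77 (Ewsr1), from -0.93 to -0.81 (Hnrnpa2b1), from -1.37 to -1.24 (Cirbp) and from -1.0 to -0.86 (Hnrnph3). For shared donors it went from 0.84 to 0.54 (Ewsr1), from 2.04 to 1.98 (Hnrnpa2b1) and from -0.90 to -0.52 (Rbm4). These values differ by construction, since 1 of 2 folds is left out. Read from its other side, the Ewsr1 change is 0.84 in place of 1.44, and 1.44 in place of 0.84.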
